A study of Mus musculus with 6 samples.

Results

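Arc, Npas4 and Homer1 are 3 genes that neurons transcribe within minutes of synaptic activity. They were taken from the deposited gene count table by symbol, as 3 of its 37411 gene rows, and were described in all 6 libraries of the series. RNA came from primary hippocampal neurons of CD-1 IGS mice, prepared from pups at postnatal day 0 and kept for 16 days in vitro. Libraries 4, 5 and 6 came from neurons given 50 µM forskolin for 30 min, and libraries 1, 2 and 3 from neurons given an equal amount of the solvent dimethyl sulfoxide (DMSO) for as long. Values for the 3 libraries of a group are given in the order of their numbers. Forskolin stimulates adenylyl cyclase, the enzyme that makes cyclic AMP. Whether the 3 libraries of a group came from separate preparations is not stated in the labels, so the p-values measure the spread between these libraries.

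Cyclic AMP activates protein kinase A, which phosphorylates CREB, a transcription factor that binds the cyclic AMP response element (CRE). Arc encodes a cytoskeleton-associated protein that acts at the postsynapse, where it promotes the endocytosis of AMPA-type glutamate receptors. Npas4 encodes a transcription factor of the bHLH-PAS family that pairs with Arnt or Arnt2, and in neurons it is known for its selective induction by calcium entry. Homer1 encodes a postsynaptic scaffold. Its long forms couple through a coiled coil and link metabotropic glutamate receptors to Shank proteins, whereas the short form Homer1a, made from the same gene after activity, lacks the coiled coil and uncouples these links.

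In GENCODE M21 (GRCm38) Arc lies at chr15:74669083-74672570 on the minus strand, Npas4 at chr19:4984355-4990316 on the minus strand and Homer1 at chr13:93299635-93405129 on the plus strand. All are protein-coding. No annotated gene overlaps Arc or Npas4. Homer1 is overlapped on its own strand by 2 annotated genes, Gm47075 and Gm47088, which have no row in the count table. Homer1 has 11 coding transcripts in that annotation, of which 4 end more than 10000 bases before the end of the gene. One of these, with 5 exons, ends at base 93360462. The count table has 1 row for Homer1, so short and long forms were counted together.

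The start-site regions of members are shown because CREB, described above, binds the CRE. Whether CREB acted on the members in these cultures was not tested. RefSeq (GRCm38.p6) windows of 300 bases, from 250 before to 50 after an annotated start, were found for 2 of the 3 members, Npas4 and Homer1. Capitals mark the CRE core, TGACG on either strand. The Npas4 window is chr19:4989922-4990221 (minus strand) and the first Homer1 window is chr13:93303507-93303806 (plus strand), each printed 5′ to 3′ in the direction of the gene.
Npas4: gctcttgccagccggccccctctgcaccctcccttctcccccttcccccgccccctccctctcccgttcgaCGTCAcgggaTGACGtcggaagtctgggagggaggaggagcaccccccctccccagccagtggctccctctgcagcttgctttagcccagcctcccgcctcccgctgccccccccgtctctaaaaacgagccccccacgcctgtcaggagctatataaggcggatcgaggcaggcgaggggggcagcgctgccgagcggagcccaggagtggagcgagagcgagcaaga
Homer1: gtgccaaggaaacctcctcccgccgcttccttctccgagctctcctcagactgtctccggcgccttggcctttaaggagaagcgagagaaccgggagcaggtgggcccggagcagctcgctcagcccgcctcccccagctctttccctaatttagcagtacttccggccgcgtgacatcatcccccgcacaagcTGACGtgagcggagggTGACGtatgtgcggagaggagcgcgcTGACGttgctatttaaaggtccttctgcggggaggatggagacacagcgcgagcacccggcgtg

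Npas4 had 2 CRE core matches, on opposite strands, with their first printed letters 179 and 169 bases upstream of the start. Homer1 had 3, at 56, 40 and 14 bases upstream, all on the plus strand. A second Homer1 window, at a downstream start (chr13:93307784-93308083), had 0. Of 32851 windows of this length, 20.8% held at least 1 CRE core, 5.01% at least 2 and 1.03% at least 3. The full palindrome TGACGTCA, which contains the CRE core, was in none of the 3 windows and in 1.79% of all windows. A match of letters is a description of the sequence and not a measured binding site.

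The whole series sets the background for the members. Total counts per library ranged from 28342764 to 47548379. The quasi-likelihood test of edgeR covered 16233 genes, of which 28 (0.172%) were higher and 217 (1.34%) lower with forskolin at a Benjamini-Hochberg adjusted p-value under 0.05, and none of the 3 members was among them. In CPM (counts scaled by library size and TMM factor), all 3 forskolin values exceeded all 3 DMSO values for 10.3% of tested genes. The share of counts on the mitochondrial ribosomal RNA genes was 14.03, 23.7 and 19.8% under solvent and 29.6, 33.3 and 26.9% under forskolin. It was higher in all 3 forskolin libraries, as the levels of Arc and Npas4 were, and its part in their differences and in those of the lists was not tested. Microglia and neuron markers also differed between libraries. The summed level of 11 tested microglia markers was 222 and 357 CPM in libraries 4 and 5, against 25.0 CPM in library 6 and 22.9 to 35.2 CPM in the DMSO libraries. The summed level of 14 neuron markers was 3903 and 4129 CPM in libraries 4 and 5, against 6414 CPM in library 6 and 5378 to 6724 CPM in the DMSO libraries. Of the 11 microglia markers edgeR called 0 higher on the 6 libraries but 10 without library 6, where 16.5% of all genes were called higher, and DESeq2 called 10 on the 6 libraries, where 5.2% were. Of the 14 neuron markers edgeR called 1 lower on the 6 libraries and 9 without library 6, where 17.1% of all genes were called lower, and DESeq2 called 4, where 6.36% were. In these mixed cultures fewer cells of a type and less RNA per cell cannot be told apart. All 14 neuron markers were detected in every library, the lowest with 541 counts.

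Arc was about 3 times as abundant after 30 min of forskolin. It had 91.3, 43.9 and 39.7 CPM under solvent and 163, 195 and 206 CPM under forskolin. The groups did not overlap, and the lowest forskolin library was 1.79 times the highest DMSO library. The group means were 58.3 ± 28.6 CPM (SD, n = 3) with DMSO and 188 ± 22.1 CPM (SD, n = 3) with forskolin. The fitted log2 fold change was 1.69 ± 0.33 (SE), a 3.22-fold difference with a 95% interval from 1.87 to 5.54. Its edgeR adjusted p-value was 0.0660, short of the threshold. Without library 6 edgeR called Arc (log2 fold change 1.602, adjusted p = 0.0178), at a background where 16.5% of genes were called higher. DESeq2 on the 6 libraries also called it (adjusted p = 3.01e-05), where 5.2% of genes were called higher and 6.36% lower. The adjusted p-value of Arc over the alternatives ran from 3.01e-05 to 0.364. The authors' deposited table, as used here, lists 132 genes, the smallest at a log2 fold change of 1.501, and holds a row for 0 of the 3 members.

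Npas4 was high in all 3 forskolin libraries and in 1 DMSO library. It had 105, 25.5 and 24.9 CPM under solvent and 112, 150 and 145 CPM under forskolin. DMSO library 1 thus held more than 4 times the Npas4 of either other DMSO library, and library 4 exceeded it by a factor of 1.06. The group means were 51.9 ± 46.3 CPM (SD, n = 3) and 135 ± 20.3 CPM (SD, n = 3). The fitted log2 fold change was 1.38 ± 0.57 (SE), or 2.61-fold with a 95% interval from 1.02 to 6.69, and the edgeR adjusted p-value was 0.219. Without library 1 the log2 fold change was 2.45 ± 0.20 (SE; edgeR adjusted p = 0.0968), the largest value of Npas4 over the alternatives run. In that fit 0 genes passed in edgeR, and 2476 had an unadjusted p-value under 0.05.

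Homer1 was 1.26 times as abundant with forskolin, with groups that overlapped. It had 54.0, 56.0 and 80.1 CPM under solvent and 65.9, 81.8 and 91.8 CPM under forskolin. DMSO library 3 lay above forskolin library 4. The means were 63.4 ± 14.5 CPM (SD, n = 3) and 79.9 ± 13.1 CPM (SD, n = 3). The fitted log2 fold change was 0.33 ± 0.20 (SE; edgeR adjusted p = 0.352), and its 95% interval in fold ran from 0.909 to 1.74. A rise above 1.74-fold lies outside this interval only with this scaling and for all forms counted together. The log2 fold change scaled to neuron markers, given below, was larger at 0.74. A rise of the short form alone is not bounded by either value. After correction for each library's trend on GC content, the sign changed (log2 fold change -0.25, edgeR adjusted p = 0.611). The longest Homer1 transcript has a GC content of 36.9%, against 59.0% for Arc, 55.6% for Npas4 and a median of 49.5% over tested genes with a value. For Homer1 this transcript is the 5-exon form that ends at base 93360462, and for Npas4 it is annotated as a retained intron. The GC correction used these forms, and other forms were not tried. Across tested genes, fold change and GC content had a Spearman correlation of -0.51, a description across genes that share the same 6 libraries.

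**Figure D1:**
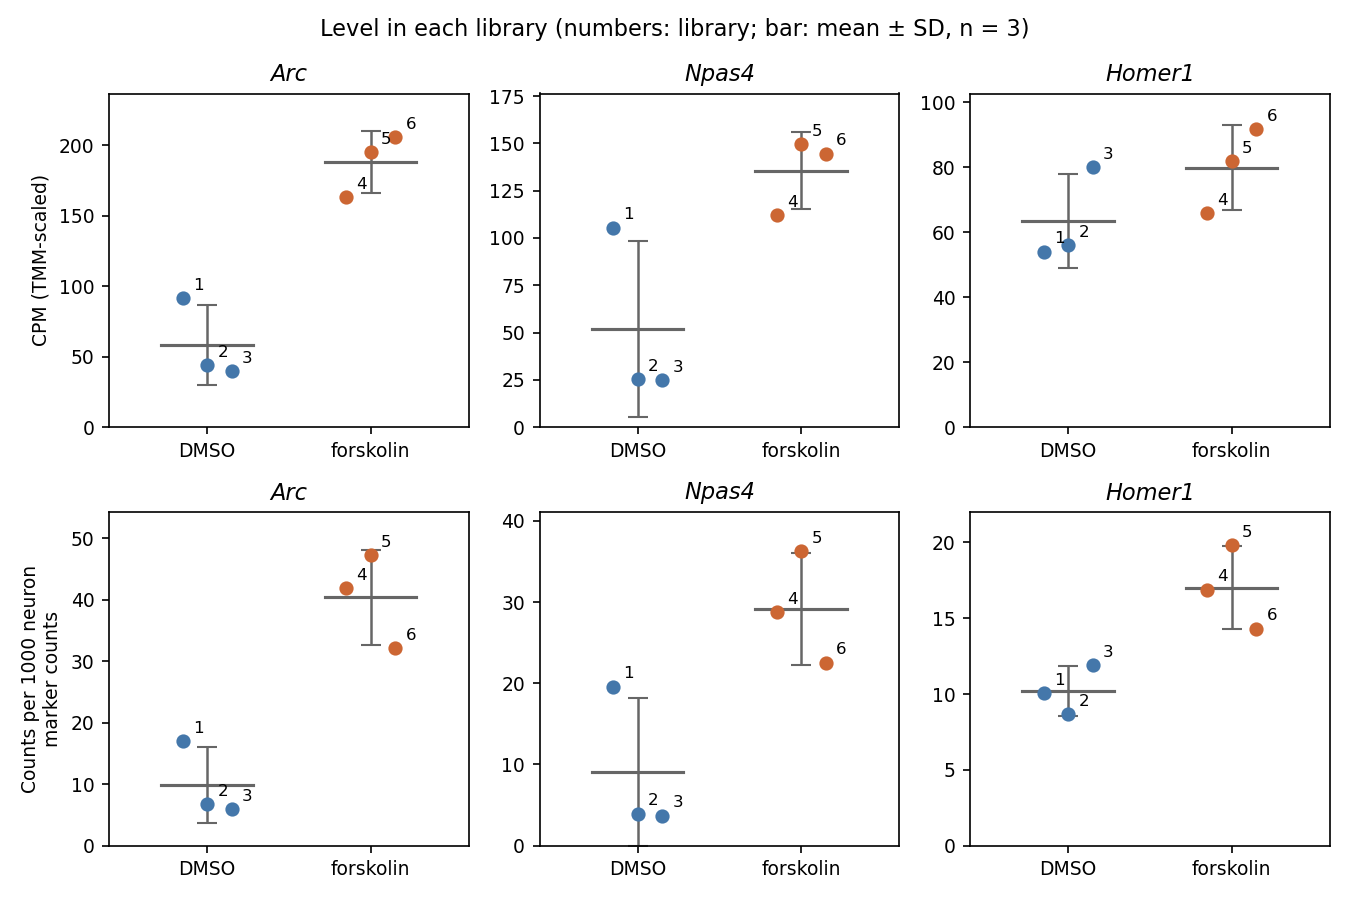
Level of Arc, Npas4 and Homer1 in each library, in CPM (top) and in counts per 1000 counts of 14 neuron markers (bottom). Points are libraries with their numbers, the wide line is the group mean and the bar its SD. Arc is apart on both scales, DMSO library 1 reaches 105 CPM of Npas4, and Homer1 overlaps in CPM but not per neuron marker.

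Because the neuron markers differed between libraries, the members were also set against the summed counts of the 14 neuron markers. Per 1000 neuron marker counts Arc had 17.0, 6.78 and 5.91 counts under solvent and 41.8, 47.2 and 32.1 under forskolin. Npas4 had 19.6, 3.93 and 3.70 counts under solvent and 28.7, 36.2 and 22.5 under forskolin. Homer1 had 10.05, 8.65 and 11.9 counts under solvent and 16.9, 19.8 and 14.3 under forskolin. On this scale the forskolin libraries all lay above the DMSO libraries for each member (exact two-sided permutation p = 0.1 for each, the smallest that 3 against 3 allows). All 3 forskolin values exceeded all 3 DMSO values on this scale for 18.3% of tested genes, and the median over the whole table moved from 0.02 to 0.44 in log2 fold change. Relative to that shift the value of Homer1 on this scale, 0.74 ± 0.20 (SE; edgeR adjusted p = 0.200), was close to its value in CPM. Those of Arc and Npas4 were 2.03 and 1.68 (edgeR adjusted p = 0.200 and 0.203), and here no gene passed in edgeR (0 called, 3809 with an unadjusted p-value under 0.05).

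The order of the forskolin libraries differed between the scales. In CPM library 6 was the highest of the 3 for Arc and Homer1, and per neuron marker it was the lowest for all 3 members. Among 16 other rapid activity-response genes, 15 had their lowest forskolin level in CPM in library 6, against 47.6% of all tested genes. Fos, the standard marker of recent activity, had 831 and 902 CPM in libraries 4 and 5 but 448 CPM in library 6. Npas4 instead had 112 CPM in library 4 and 145 CPM in library 6; the difference from the 16 genes was not tested. The microglia and neuron markers moved with this split, as given above, and their part in it was not tested.

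The baseline spread of Arc and Npas4 among DMSO libraries was wide. The coefficient of variation (SD over mean) of Npas4 over libraries 1, 2 and 3 was 89.2%, that of Arc 49.1% and that of Homer1 22.9%. The median over 9414 tested genes with a DMSO mean of at least 10 CPM was 8.95%, and 14 of these genes (0.149%, Npas4 included) varied as much as Npas4. For Arc the number was 59 (0.627%) and for Homer1 930 (9.88%). Counting error was small beside this: at the lowest count of any member, 776 reads of Npas4 in library 2, it corresponds to 3.59%. In the forskolin libraries the coefficients of variation were 11.8% for Arc, 15.03% for Npas4 and 16.4% for Homer1, beside a median of 15.04% over the same genes.

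DMSO library 1 was the highest DMSO library for Arc and Npas4, and the lowest for Homer1. The same library was the highest for 13 of the 16 rapid activity-response genes, against 35.8% of all tested genes. Fos had 186 CPM in library 1 and 109 and 101 CPM in libraries 2 and 3. Npas4 differed more, at a log2 ratio to the DMSO mean of 1.02 in library 1 against -1.03 and -1.06 in libraries 2 and 3. Library 1 was also the highest DMSO library for 8 of 10 astrocyte markers and 8 of 11 tested microglia markers, and for 1 of 14 neuron markers; the part of these in the result was not tested.

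**Figure D2:**
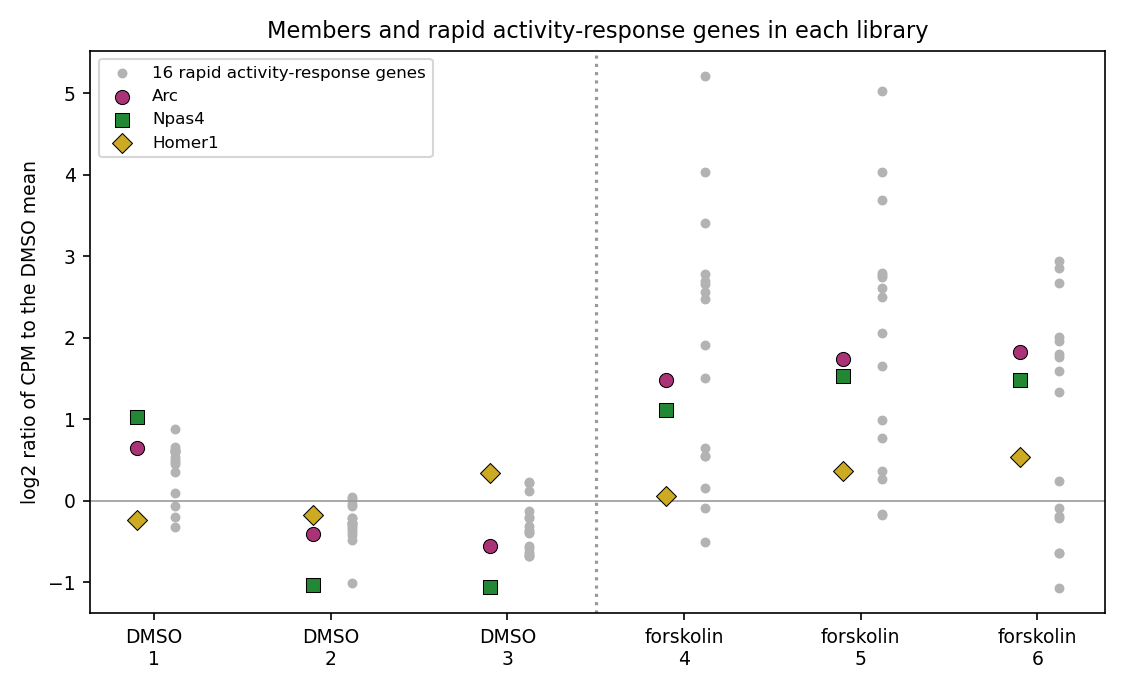
Log2 ratio of CPM to the DMSO mean in each library, for Arc, Npas4, Homer1 and 16 rapid activity-response genes (grey points, 1 per gene). In DMSO library 1 Npas4 (1.02) and Arc (0.65) lie above the DMSO mean with most grey points; in library 6 Arc is at 1.82 while 15 of the 16 grey genes have their lowest forskolin level.

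Ratios of members within a library need no scaling between libraries. The log2 ratio of Arc to Npas4 counts was -0.21, 0.79 and 0.67 under solvent and 0.54, 0.38 and 0.51 under forskolin. The forskolin values fell inside the DMSO range (difference of means 0.06, exact two-sided permutation p = 1). Without library 1 the difference was -0.25 (exact permutation p = 0.1, the smallest that 2 against 3 allows). The log2 ratio of Arc to Homer1 was 0.76, -0.35 and -1.01 under solvent and 1.31, 1.25 and 1.16 under forskolin. It was higher in 3 of 3 forskolin libraries, by 1.44 on average, with an exact permutation p of 0.1, the smallest possible, and 0.3 after adjustment over the 3 ratios. The log2 ratio of Npas4 to Homer1 was 0.96, -1.14 and -1.69 under solvent and 0.77, 0.87 and 0.65 under forskolin, where library 1 lay above every forskolin library (difference 1.38, exact permutation p = 0.4). That difference was 2.18 without library 1 (exact permutation p = 0.1) and 0.85 without library 3 (exact permutation p = 0.4). The 3 ratios varied less among the forskolin libraries (SD 0.07 to 0.11) than among the DMSO libraries (SD 0.54 to 1.40), which was not tested.

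Levels of different genes can be set side by side only per length. Per kilobase of the longest annotated transcript, Arc had 19.1 ± 9.37, Npas4 13.7 ± 12.2 and Homer1 11.1 ± 2.54 CPM per kb with DMSO (SD, n = 3), an order within the spread of the libraries. With forskolin they had 61.5 ± 7.23, 35.7 ± 5.37 and 13.98 ± 2.29 CPM per kb (SD, n = 3), and the ranges of the 3 genes did not overlap. The Homer1 value depends on which transcripts were present, since its coding transcripts are 772 to 5713 bases long. The longest of them is the 5-exon form that ends early. The Npas4 length of 3791 bases is that of its retained-intron form, against 3622 bases for its coding transcript.

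Over the 6 libraries the log2 CPM of Arc and Npas4 had a Pearson correlation of 0.96, that of Arc and Homer1 0.44 and that of Npas4 and Homer1 0.29, as descriptions of libraries that share 1 contrast. Of 11307 tested genes with a mean of at least 5 CPM, the genes most like Arc were Egr2 (0.974), Fosb (0.973) and Ovca2 (0.970). Egr2 and Fosb encode activity-induced transcription factors. Fosb had 11.2, 3.05 and 4.10 CPM under solvent and 65.0, 78.8 and 47.0 CPM under forskolin (edgeR log2 fold change 3.38, adjusted p = 0.0402). Those most like Npas4 were Kin (0.995), Fam118b (0.994) and Ndst2 (0.967), whose log2 fold changes were 0.21, 0.27 and 0.15. They share the high value in DMSO library 1 but span a far narrower range. Those most like Homer1 were 2700029M09Rik, Slc25a32 and Gabrb2, each at 0.991, and 299 genes exceeded 0.9 with it, against 56 for Arc and 38 for Npas4. Gabrb2 encodes a GABA-A receptor subunit and had 42.1, 47.3 and 67.5 CPM under solvent and 54.9, 71.9 and 87.8 CPM under forskolin.

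The other genes of the pathway were taken from lists by role. None of the edgeR calls given for them held when any 1 of libraries 1 to 5 was left out, after GC correction or when scaled to neuron markers, since 0 genes of the whole table passed in those fits (1913 to 3809 at an unadjusted p-value under 0.05). The log2 fold changes of the 8 called rapid genes were 1.74 to 4.67 as fitted and 1.79 to 4.81 after GC correction, and 2.13 to 5.19 when scaled to neuron markers, where the median of all genes was 0.44. The first holds 16 rapid activity-response genes. Of these 8 were called higher and 0 lower by edgeR over all tested genes, beside 0.172% and 1.34% of all genes, with a median log2 fold change of 1.97 against 0.02 over all tested genes; without library 6 the count was 12 higher, where 16.5% of all genes were, and with DESeq2 it was 9 higher, where 5.2% were. After GC correction 7 of the 8 had a log2 fold change at least as large as fitted (Fos 2.53, Dusp1 2.64), and Nr4a2 had 2.47 against 2.53. Those with the smallest p-values were Dusp1, Nr4a2, Maff and Btg2. Dusp1, a phosphatase of MAP kinases, had 37.9, 22.9 and 22.5 CPM under solvent and 180, 185 and 112 CPM under forskolin (log2 fold change 2.52 ± 0.29 (SE), edgeR adjusted p = 0.0276). Fos rose by 2.46 ± 0.36 (SE) on the log2 scale (edgeR adjusted p = 0.0376). In the authors' deposited table the log2 fold change of Fos is 2.44. The fitted values of Arc and Npas4 lay below the list's median and that of Homer1 well below it.

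Of 12 transcriptional inputs known to act on activity genes (CREB and its coactivators, SRF with its partners, and MEF2 factors), 0 were called higher and 1 lower, beside 0.172% and 1.34% of all genes, with a median of -0.13. The lower one was Crtc1, a coactivator that binds CREB. It had 51.6, 54.0 and 54.8 CPM under solvent and 36.4, 38.3 and 34.2 CPM under forskolin (log2 fold change -0.56 ± 0.10 (SE), edgeR adjusted p = 0.0482; -0.32 and 0.343 after GC correction). Mkl1 (-0.59), Mef2d (-0.51) and Srf (-0.45) had edgeR adjusted p-values of 0.0595, 0.121 and 0.125 on the 6 libraries and 0.0107, 0.00644 and 0.0246 without library 6, and the value of Srf was 0.40 after GC correction. Without library 6 the count was 6 lower, where 17.1% of all genes were called lower, and with DESeq2 it was 4 lower (Crtc1, Mkl1, Mef2d and Srf), where 6.36% were. When scaled to neuron markers, where the median of all genes was 0.44, these 4 were at -0.12, -0.16, -0.12 and -0.004 in the same order. The neuron markers themselves had a median of -0.45 in CPM, and their part in these values was not tested.

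The bHLH-PAS family, to which Npas4 belongs, had 10 of 12 genes with enough counts to test. None was called by edgeR or DESeq2 on the 6 libraries, and the median log2 fold change was 0.02. Without library 6 edgeR called Npas3 higher (log2 fold change 0.37, adjusted p = 0.0267), and Epas1 (-1.02, 0.00410) and Npas2 (-0.77, 0.0381) lower, at the shares of 16.5% higher and 17.1% lower over all genes. Both known partners of Npas4 were detected in all 6 libraries. Arnt2 had 146, 153 and 156 CPM under solvent and 145, 111 and 160 CPM under forskolin (log2 fold change -0.13 ± 0.15 (SE), edgeR adjusted p = 0.639). Arnt had a log2 fold change of 0.13 ± 0.17 (SE; edgeR adjusted p = 0.687). The smallest p-values in the family were those of Npas1 (-0.83, edgeR adjusted p = 0.186), Epas1 (-0.67, 0.192), Clock (0.51, 0.265) and Hif1a (0.25, 0.412). Sim1 and Sim2 held at most 1 count in any library.

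Of 12 effector genes regulated by neuronal activity, 2 were called higher and 1 lower, beside 0.172% and 1.34% of all genes, with a median log2 fold change of 0.21. Without library 6 these were 5 and 1, beside 16.5% and 17.1%, and with DESeq2 3 and 1, beside 5.2% and 6.36%. Rgs2, a regulator of G protein signalling, had 42.7, 45.8 and 43.4 CPM under solvent and 144, 133 and 121 CPM under forskolin (log2 fold change 1.59 ± 0.11 (SE), edgeR adjusted p = 0.0188). Its fold of 3.02 stood beside 3.22 for Arc, and its solvent libraries ranged only from 42.7 to 45.8 CPM. Ptgs2, the inducible cyclooxygenase, rose by 2.28 (edgeR adjusted p = 0.0297). Vgf, a neuropeptide precursor, had 335, 397 and 340 CPM under solvent and 137, 140 and 150 CPM under forskolin (log2 fold change -1.33 ± 0.13 (SE), edgeR adjusted p = 0.0204). After GC correction the value of Vgf was -0.47 (edgeR adjusted p = 0.439). The value of Gadd45g, which encodes a stress sensor, was 1.202 in log2 fold change (edgeR adjusted p = 0.161). It passed with DESeq2 on the 6 libraries (adjusted p = 0.0250) and with edgeR without library 6 (1.49, adjusted p = 0.0105).

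Of 14 partners of the Arc protein in receptor endocytosis, the postsynaptic density and its own degradation, 0 were called higher and 0 lower by edgeR, where 3619 genes (22.3%) over the whole table had an unadjusted p-value under 0.05. Their median log2 fold change was -0.20. The smallest p-values were those of Camk2b, a kinase subunit that binds Arc (-0.58, edgeR adjusted p = 0.133), and of Dlg4, the scaffold PSD-95 (-0.56, 0.169). Wasf1 (-0.61, 0.170) and Ap2m1 (-0.35, 0.306), a subunit of the clathrin adaptor, followed. Without library 6 edgeR called 5 of the 14 lower, where 17.1% of all genes were called lower. Among them were Camk2b (-0.75, adjusted p = 0.00434), Dlg4 (-0.76, 0.0107), Wasf1 (-0.90, 0.00327) and Ap2m1 (-0.60, 0.00505). DESeq2 on the 6 libraries called 1 of the 14 lower, Camk2b (adjusted p = 0.0241), near the share of 6.36% over all genes. The median of the neuron markers was -0.45 on the 6 libraries, and without library 6 edgeR called 9 of 14 lower. Scaled to neuron markers, Camk2b was at -0.20, Dlg4 -0.18, Wasf1 -0.25 and Ap2m1 0.003 (edgeR adjusted p from 0.321 to 0.991). On that scale all genes together had a median of 0.44. What part the neuron markers had in the Arc partner values was not tested.

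In the list of Homer1 relatives and binding partners, the calls were all lower. Of 12 tested genes of 13 in this list, 0 were called higher and 4 lower, beside 1.34% of all genes called lower, with a median log2 fold change of -0.36. The 14 neuron markers had a median of -0.45 (Rbfox3 -0.87), and their part in the values of this list was not tested. Without library 6 there were 6 lower, beside 17.1% of all genes, and with DESeq2 on the 6 libraries 5 lower, beside 6.36%. The 4 were Shank3, Agap2, Dbn1 and Shank1. Shank3, a postsynaptic scaffold that Homer proteins bind, fell from 145, 153 and 145 CPM to 81.2, 78.6 and 68.3 CPM (log2 fold change -0.96 ± 0.11 (SE), edgeR adjusted p = 0.0276). Shank1 fell by 0.95 ± 0.15 (SE) on the log2 scale (edgeR adjusted p = 0.0417), Agap2, a GTPase-activating protein linked to Homer, by 0.83 (0.0368) and Dbn1, the actin-binding drebrin, by 0.70 (0.0402). Their transcripts have GC contents of 58.2 to 63.0%, and after GC correction their log2 fold changes were -0.28, -0.31, -0.08 and -0.33 for Shank3, Shank1, Agap2 and Dbn1 (edgeR adjusted p from 0.376 to 0.856). When scaled to neuron markers, where the median of all genes was 0.44, they were -0.51, -0.57, -0.42 and -0.27 in the same order (edgeR adjusted p from 0.200 to 0.440). Homer2 had 44.5, 49.7 and 60.5 CPM under solvent and 35.7, 35.6 and 55.0 CPM under forskolin (log2 fold change -0.29 ± 0.21 (SE), edgeR adjusted p = 0.430). It was called lower without library 6 (-0.55, edgeR adjusted p = 0.0296). Homer3 had a log2 fold change of -0.35 ± 0.16 (SE; edgeR adjusted p = 0.261), which was 0.17 after GC correction. Scaled to neuron markers, Homer2 was at 0.08 and Homer3 at 0.07. Grm5, a receptor that Homer proteins bind, is listed at 0 in all 6 libraries of the table. The annotation used for counting is not given, so absence from the cells cannot be told from a gene that was not counted.

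**Figure D3:**
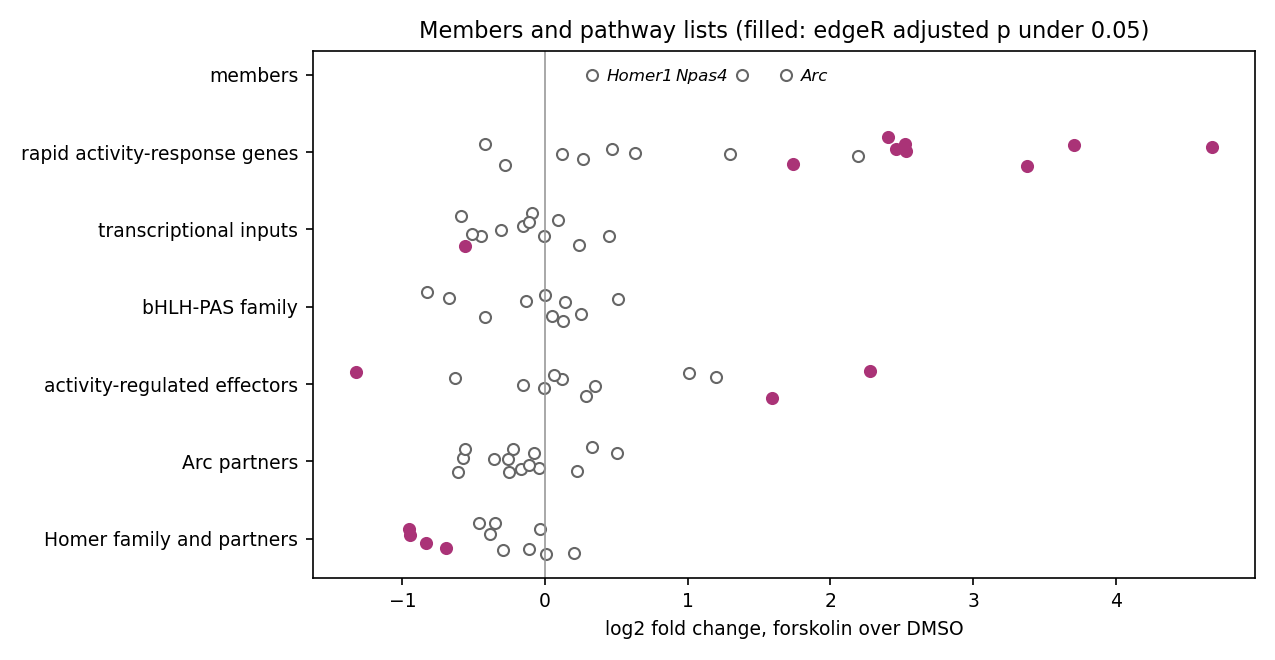
Log2 fold change (forskolin over DMSO, edgeR) of Arc, Npas4 and Homer1 and of the tested genes in 6 lists, 1 point per gene, filled where the adjusted p-value was under 0.05. Filled points are 8 of 16 rapid activity-response genes (all higher), 4 of 12 tested genes of the Homer list (all lower), 3 of 12 effectors and 1 of 12 transcriptional inputs; all 3 members are open.

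Across the settings tried, Arc and Npas4 kept a positive fold change in each, and Homer1 in each except after GC correction. The fitted log2 fold change ranged over alternatives from 1.46 to 2.19 for Arc, from 1.04 to 2.45 for Npas4 and from -0.25 to 0.74 for Homer1. With library 6 as the only forskolin library, which assumes that it varies like the DMSO libraries, the values were 1.85 ± 0.43, 1.51 ± 0.78 and 0.57 ± 0.24 (SE; edgeR adjusted p = 0.140, 0.422 and 0.339). These values rest on 1 forskolin library. With library quality weights in limma-voom, 21% of all genes were called higher, Arc and Npas4 among them. Without a low-count filter 0.173% were, Arc among them, and without libraries 4 and 5 0.0354%, none of them a member.

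**Figure D4:**
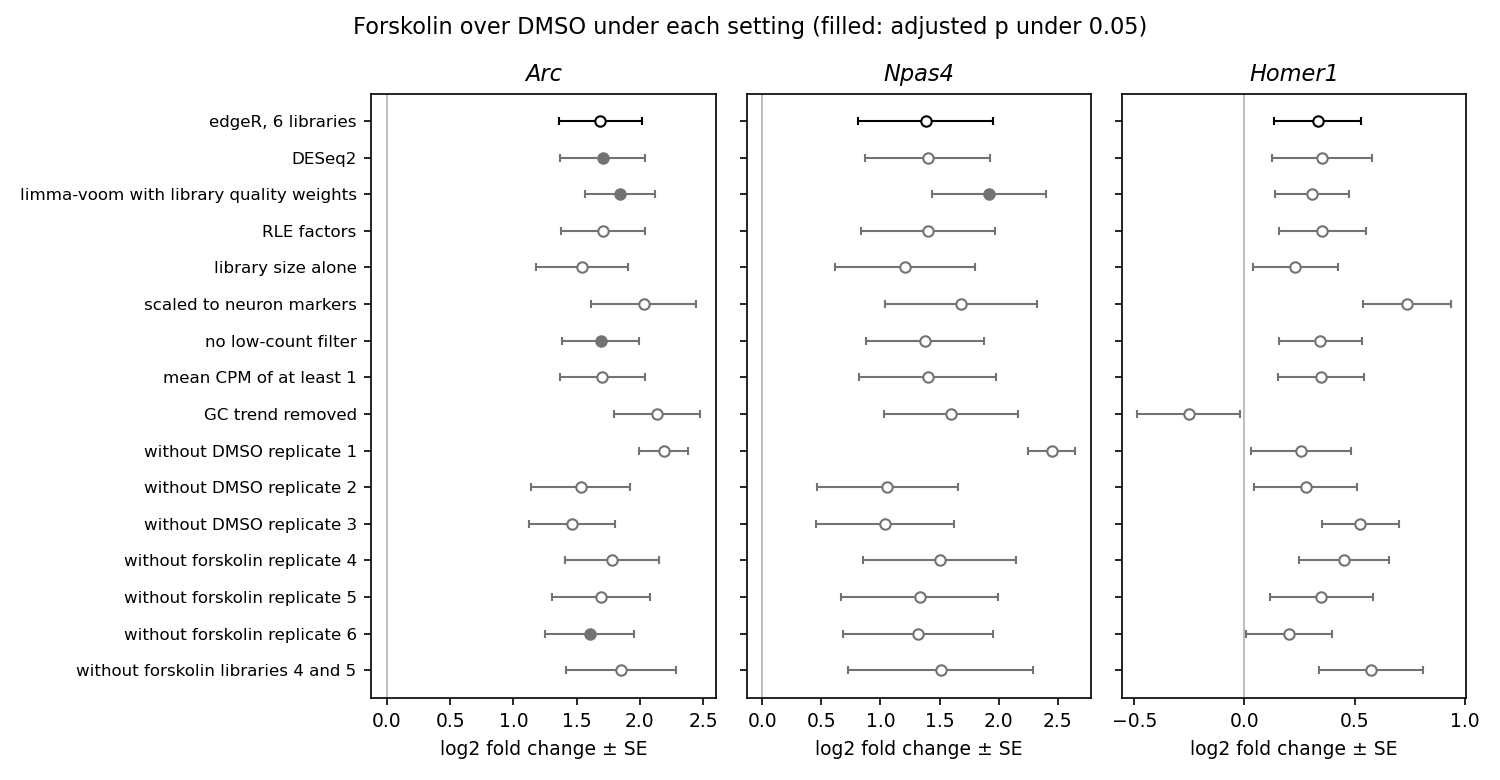
Log2 fold change (forskolin over DMSO) with its SE for each member under each setting, filled where the adjusted p-value was under 0.05. Arc is filled under 4 alternatives (DESeq2, quality weights, no low-count filter, without library 6), Npas4 under 1 and Homer1 under none; the value of Homer1 is below 0 after GC correction.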

How the data were processed

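The authors deposited counts per gene symbol, whole numbers with 1 column per library. The submitters' processing notes name Salmon, DESeq and GRCm38 without role or version; annotation, strand setting and any rounding of estimated counts are not given in the sources used here. A results table from the authors holds a normalised mean (signal), log2 fold changes with standard errors, a test statistic (score) and p-values, per the file headers. Quoted from it are its number of genes, its smallest log2 fold change, the absence of the members and the log2 fold change of Fos.

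Tools were DESeq2 1.42.0, limma 3.58.1 and edgeR 4.0.16, in R 4.3.3. Low genes were removed by filterByExpr (minimum count 10, minimum total count 15) and scaled by TMM. A model of group alone went through glmQLFit and glmQLFTest, a procedure first run on simulated data. The simulation gave every gene the same relative spread and no GC trend. It checks the procedure and not its performance on these libraries. P-values were adjusted over all 16233 genes with a threshold of 0.05. The SE is the log2 fold change over the square root of F. Log2 CPM used a prior count of 2. Transcript length and GC content were those of the longest transcript of each symbol in GENCODE M21, of any type. A GC value was found for 97.1% of tested genes, and genes without one were not corrected. Alternatives were another test, scaling, filter, GC trend removal and leaving out libraries. Within groups, no libraries agreed within sampling noise (chi-square per degree of freedom of at least 33.2).

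The members, lists and tests were chosen with earlier results of these data known. Arc, Npas4, Homer1, Homer2, Homer3, Arnt, Arnt2 and Fos were named whatever their values, as were up to 4 genes per list with the smallest p-values and the 3 genes most like each member; Grm5, Sim1, Sim2, Npas2 and Npas3 were named after their values were seen. Of the marker lists, edgeR called 1 of 14 neuron markers lower (Rbfox3), and 0 of 11 tested microglia, 0 of 10 astrocyte and 0 of 10 oligodendrocyte lineage markers. With DESeq2 these became 4 neuron markers lower, 10 microglia markers higher, 1 astrocyte marker lower, and 3 oligodendrocyte lineage markers higher and 2 lower. Without library 6 edgeR called 9 neuron markers lower, 10 of the same 11 microglia markers higher, 2 astrocyte markers higher and 2 lower, and 5 oligodendrocyte lineage markers higher and 2 lower. A further microglia marker, removed by the filter on the 6 libraries, was also called higher in that fit. Over all genes the shares called higher and lower were 0.172% and 1.34% on the 6 libraries, 5.2% and 6.36% with DESeq2, and 16.5% and 17.1% without library 6.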

Additional observations from a re-analysis of the deposited data

How the results depend on the processing

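No paired analysis was possible because the groups share no replicate number. Arc passed 0.05 with DESeq2 (log2 fold change 1.71), limma-voom with library quality weights (1.84), no low-count filter (1.69) and without library 6; Npas4 passed with quality weights (1.92, adjusted p = 0.0191). Leaving out 1 library gave 1.46 to 2.19 for Arc, 1.04 to 2.45 for Npas4 and 0.20 to 0.53 for Homer1. Homer1 reversed with the GC trend removed (-0.25); the cause was not tested. The log2 ratio of Arc to Npas4 reversed without library 1 (-0.25; range -0.25 to 0.24 over single libraries left out). The same range was 1.04 to 1.92 for Arc to Homer1 and 0.85 to 2.18 for Npas4 to Homer1.

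The 245 calls became 1765 with DESeq2, 6795 with quality weights, 137 with RLE factors, 94 without libraries 4 and 5, and 0 both with the GC trend removed and when scaled to neuron markers (1913 and 3809 genes at an unadjusted p-value under 0.05). Leaving out 1 library gave 0 to 5698: 5698 without library 6 and 0 without any other (1945 to 3216 at an unadjusted p-value under 0.05). For the 16 rapid genes, 8 calls became 13 with quality weights, 0 with the GC trend removed or scaled to neuron markers, 1 without libraries 4 and 5, and 0 to 12 with 1 library left out; log2 fold changes of examples were not lower under those scalings (Dusp1 2.52 as fitted, 2.64 with the GC trend removed and 2.96 scaled to neuron markers, Fos 2.46, 2.53 and 2.92). Of the members' counts, none is below 776, so depth limits them little; transcript forms of Homer1 cannot be separated at any depth in a table per gene.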
